A study of Mus musculus with 6 samples.

Results

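The genes described here are 10 receptors and enzymes of eicosanoid signalling, chosen by name as leukotriene and prostaglandin receptors and the enzymes that make these lipids, out of 25865 genes in the deposited table. The leukotriene receptors are Ltb4r1 and Cysltr1, the prostanoid receptors are Ptgdr2, Ptger2, Ptger4 and Ptgir, and the synthesis genes are Alox5, Alox5ap, Ltc4s and Hpgds. All 10 were present in the table. RNA was sequenced from group 2 innate lymphoid cells (ILC2s), tissue-resident lymphocytes known for making type 2 cytokines, sorted from the large intestine of C57BL/6 mice. Before treatment all cells spent 5 days in culture with 10 ng/mL of each of the cytokines IL-33, IL-25, IL-7 and IL-2. The 3 toyocamycin samples then received toyocamycin, an adenosine analogue known to block the ribonuclease of IRE1, a sensor of unfolded protein, and the maturation of ribosomal RNA, for 16 h, and the 3 Control samples received vehicle. The toyocamycin dose and the length of vehicle treatment are not stated in the labels. The labels also do not say whether a group's replicates came from different cultures or mice, so every p-value reflects only how far these samples spread, and that spread may be technical.

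Eicosanoids are signalling lipids made from arachidonic acid that phospholipases release from membranes. The lipoxygenase branch, which starts with 5-lipoxygenase and its membrane partner FLAP, leads to leukotriene B4 and to the cysteinyl leukotrienes. The cyclooxygenase branch leads to the prostaglandins, prostacyclin and thromboxane. Each lipid acts on G protein-coupled receptors. In ILC2s, cysteinyl leukotrienes and prostaglandin D2 are known as activating signals, and prostaglandin E2 and prostacyclin are known as restraining signals that raise cyclic AMP.

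The samples held 22.3 M to 36.7 M reads assigned to genes. Values are normalised read counts, which are reads divided by 1 factor per sample, and a mean of 3 reads per library corresponds to 2.66 in Control and 3.38 with toyocamycin. All 12 ILC2 markers examined were above that floor, with 5 called higher with toyocamycin, 6 lower and 1 not called. Of all 16223 genes tested, 65.9% were called at an adjusted p under 0.05, 32.8% higher and 33.1% lower. Gata3, Il1rl1, Ptprc, Rora and Icos were higher. Il7r, Klrg1, Areg, Arg1, Il17rb and Id2 were lower, and Thy1 was not called. Of 12 mast cell markers, 4 were above it in either group, Fcer1a and Mrgprb1 had no read in any sample, and the summed level of 29346 to 30786 in Control and 43118 to 46765 with toyocamycin was almost wholly Kit. The 8 basophil and eosinophil markers summed to 1279 to 1385 in Control and 611 to 750.4 with toyocamycin, mostly Cd200r3, with Prg3 and Ear6 at 0. The 12 macrophage and dendritic cell markers summed to 1850 to 2117 in Control and 2624 to 3111 with toyocamycin, mostly Xcr1, Lyz2 and Cd68. The 8 T cell markers summed to 2088 to 2635 and 1306 to 1554, mostly Lat. Of these 8, 3 were lower, 2 higher and 3 not called, a count near the share of all genes called. Lat, Cd3e (from 35.2 to 6.13) and Cd3d (from 6.47 to 0.88) fell, while Trac (from 40.1 to 81.8) and Cd3g (from 149 to 199) rose. The 8 epithelial and tuft cell markers summed to 190.4 to 248 and 199 to 217. The part of these cells in the results was not tested. In bulk RNA, fewer cells of a type and less RNA per cell cannot be told apart.

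RefSeq start sites on build GRCm38.p6 gave promoter windows for 8 of the 10 genes, and none for Cysltr1 and Alox5ap. Whether these windows act as promoters in these cells was not tested. The 250 bases before the start are shown for the 5 called genes that changed by 1 or more on the log2 scale. They were searched on both strands for the letters GATAA (GATA factors), GGGCGG (the GC box), AGGTCA (a nuclear receptor motif) and TGACG (the core of the cyclic AMP response element). Capitals mark matches on either strand.
Ltb4r1 (chr14:55765712-55765961, plus strand): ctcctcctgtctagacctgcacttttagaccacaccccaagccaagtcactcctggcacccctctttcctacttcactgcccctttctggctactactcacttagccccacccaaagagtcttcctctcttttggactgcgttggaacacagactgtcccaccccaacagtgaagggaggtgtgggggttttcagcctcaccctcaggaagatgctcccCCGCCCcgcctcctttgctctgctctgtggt
Ptger2 (chr14:44987861-44988110, plus strand): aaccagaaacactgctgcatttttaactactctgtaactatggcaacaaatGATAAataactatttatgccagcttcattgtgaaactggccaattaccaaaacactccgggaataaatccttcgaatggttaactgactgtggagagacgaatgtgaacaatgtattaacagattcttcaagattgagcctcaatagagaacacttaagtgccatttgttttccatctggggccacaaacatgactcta
Ptger4 (chr15:5244188-5244437, minus strand): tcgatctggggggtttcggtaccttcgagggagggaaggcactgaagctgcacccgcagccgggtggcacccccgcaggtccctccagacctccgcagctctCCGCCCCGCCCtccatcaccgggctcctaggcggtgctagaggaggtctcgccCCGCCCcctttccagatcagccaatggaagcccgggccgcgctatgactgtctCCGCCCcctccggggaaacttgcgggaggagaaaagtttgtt
Alox5 (chr6:116461179-116461428, minus strand): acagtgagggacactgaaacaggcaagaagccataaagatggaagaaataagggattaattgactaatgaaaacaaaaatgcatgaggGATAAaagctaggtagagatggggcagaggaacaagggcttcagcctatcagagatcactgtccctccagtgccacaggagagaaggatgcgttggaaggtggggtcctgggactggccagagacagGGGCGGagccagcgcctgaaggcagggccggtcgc
Hpgds (chr6:65144731-65144980, minus strand): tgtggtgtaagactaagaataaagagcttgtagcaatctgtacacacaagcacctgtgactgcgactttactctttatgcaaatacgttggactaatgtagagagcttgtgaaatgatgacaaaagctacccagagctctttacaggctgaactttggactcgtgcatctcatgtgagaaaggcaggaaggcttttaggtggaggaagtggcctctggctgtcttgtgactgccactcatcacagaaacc
The Ltb4r1 window held 1 GC box whose first base lay 31 bases before the start, and the Alox5 window 1 at 35 bases and a GATAA match at 162 bases. The Ptger4 window held 4 GC boxes, the first pair overlapping by 1 base. The Ptger2 window, with a GC content of 38%, held a GATAA match at 199 bases and no GC box, and the Hpgds window held none of the motifs. RefSeq and the gene annotation used for positions place the starts of Ptger2 and Hpgds differently. Of 32851 promoter windows of the same length, 22.6% held GATAA, 32.7% held GGGCGG, 14.0% held AGGTCA and 17.8% held TGACG, and the median GC content was 52.4%. A match describes these letters and is not a shown binding site.

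Toyocamycin-treated ILC2s had lower transcripts of the leukotriene receptors Ltb4r1 and Cysltr1, of the prostaglandin E2 receptor gene Ptger4, of Alox5 and of the prostaglandin D synthase gene Hpgds. The prostaglandin E2 receptor gene Ptger2 was higher, 3.82-fold. The prostacyclin receptor gene Ptgir was close to its Control level, and its direction depended on how samples were scaled. Ptgdr2, Alox5ap and Ltc4s were at or near the detection floor in both groups. Of the 10 genes, all of which passed the filter on low values, 5 were called lower, 2 higher and 3 were not called at an adjusted p under 0.05, against a background of 65.9% of 16223 genes called, 32.8% higher and 33.1% lower. The count of 7 called genes, or 70% of the list, is near that background. Among the called genes, 4 fell and 1 rose by at least 1 on the log2 scale, where 37.5% of all genes changed by that much, 17% upward and 20.5% downward. The groups did not overlap in 7 of the 10 genes, where 69.1% of all genes tested did not overlap. The median log2 change of the 10 genes was −1.05, against −0.03 for all genes tested. That median lies between Ptger4 (−1.14) and Alox5ap (−0.96), the latter not called. The values of Ptgdr2, Alox5ap and Ltc4s rest on 2 to 18 reads per group.

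**Figure D1:**
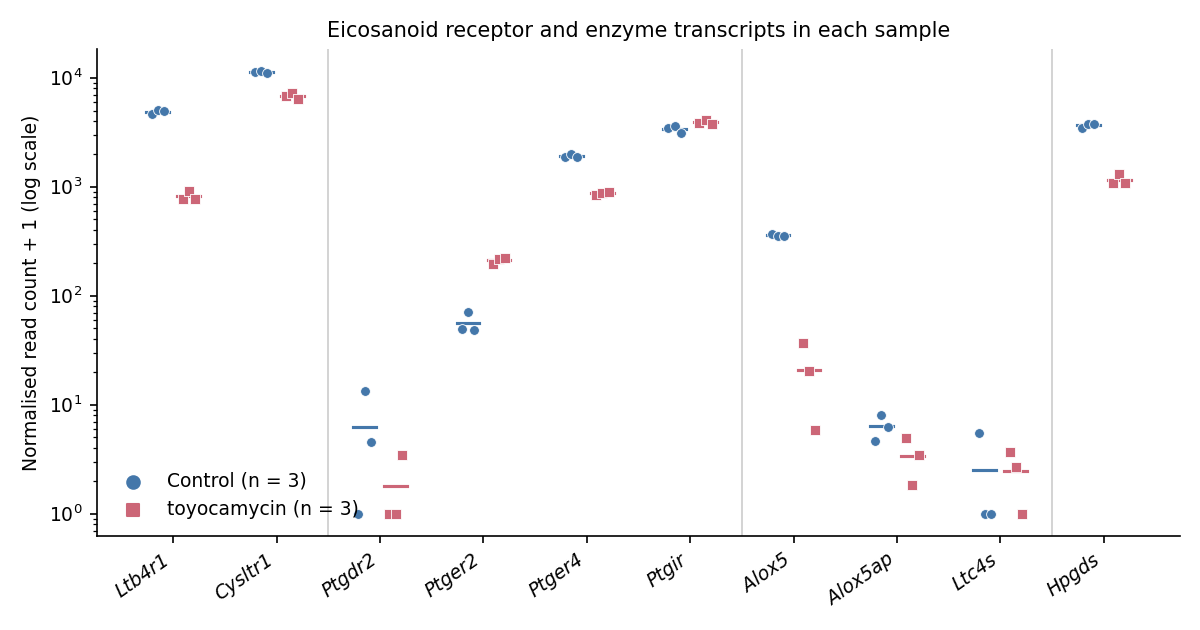
Normalised read count plus 1 (log axis) of each of the 10 genes in the 3 Control samples (circles) and the 3 toyocamycin samples (squares), with a bar at the group mean; vertical lines part leukotriene receptors, prostanoid receptors, leukotriene synthesis genes and Hpgds. Alox5 fell from about 359 to between 4.86 and 35.7, Ptger2 rose above all Control samples, and Ptgdr2, Alox5ap and Ltc4s lie at 12.3 or less in every sample.

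Ltb4r1 encodes BLT1, the high-affinity receptor for leukotriene B4, a chemoattractant of leukocytes. The gene lies on chromosome 14 (55765962 to 55768494, build GRCm38), and none of its exons overlap another annotated gene. Its normalised read counts were 4682, 5062 and 4898 in the Control samples and 774, 909 and 764 in the toyocamycin samples. Every toyocamycin sample lay far below every Control sample. The mean fell 5.99-fold, from 4881 ± 191 to 815 ± 80.9 (SD, n = 3; log2 change −2.58, SE 0.07, limma adjusted p = 8.67e-18), a rank of 595 from the most negative log2 change among 16223 genes tested.

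Cysltr1 encodes the first of the receptors for cysteinyl leukotrienes and lies on the X chromosome (106574346 to 106603679). It had the most reads of the 10 genes, with normalised read counts of 11338, 11432 and 11072 in Control and 6826, 7229 and 6438 with toyocamycin. The groups were again apart, by a smaller step than for Ltb4r1. The mean fell 1.65-fold, from 11280.5 ± 187 to 6831 ± 396 (log2 change −0.73, SE 0.05, limma adjusted p = 5.74e-11).

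Ptger2 and Ptger4 encode EP2 and EP4, the prostaglandin E2 receptors that couple to cyclic AMP synthesis. They moved in opposite directions. Ptger2 (chromosome 14, 44988195 to 45003820) had normalised read counts of 48.0, 70.2 and 47.4 in Control and 195, 214 and 222 with toyocamycin. The mean rose from 55.2 ± 13.0 to 211 ± 13.7 (log2 change 1.93, SE 0.22, limma adjusted p = 7.06e-08), the largest rise among the 10 genes, and no toyocamycin sample came near the Control samples. Ptger4 (chromosome 15, 5206661 to 5244187) had 1885, 1983 and 1877 in Control and 836, 881 and 886 with toyocamycin. Its mean fell 2.21-fold, from 1915 ± 58.8 to 868 ± 27.6 (log2 change −1.14, SE 0.07, limma adjusted p = 1.83e-12), with no overlap of the groups. Of the exon bases of Ptger4, 16.5% overlap genes on the opposite strand, mostly the pseudogene Gm15937, and the strand setting of the counting is not given, so its level is uncertain by that overlap.

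Ptgir encodes IP, the prostacyclin receptor, which also couples to cyclic AMP synthesis (chromosome 7, 16906490 to 16910905). Its normalised read counts were 3439, 3609 and 3103 in Control and 3848, 4112 and 3756 with toyocamycin. The lowest toyocamycin sample lay just above the highest Control sample. The log2 change was 0.21 (SE 0.06, limma adjusted p = 0.00505), but it turned to −0.14 with equal totals (adjusted p = 0.0268) and to −0.25 with quantile normalization (adjusted p = 0.000644). With equal totals the median log2 change of all genes was −0.36 in place of −0.03, and relative to that median Ptgir stood at 0.21 with equal totals and 0.23 with the deposited scaling. With quantile normalization the median was 0.03, and Ptgir stood at −0.29 relative to it. The call also ended without the mean-variance trend (adjusted p = 0.0798).

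Ptgdr2 encodes CRTH2, the prostaglandin D2 receptor used as a surface marker of ILC2s and Th2 cells (chromosome 19, 10937160 to 10942511). It had 0, 14 and 4 reads in Control and 0, 0 and 2 reads with toyocamycin, and the groups overlapped. The ratio of Control to toyocamycin reads, adjusted for the sample factors, was 7.35 with an exact 95% interval of 1.76 to 65.3 that covers counting error only. The limma test did not call it (log2 change −1.38, SE 0.96, adjusted p = 0.218), though it did without Control replicate 1 (log2 change −2.36, adjusted p = 0.0431). Ccdc86 on the opposite strand covers 39.0% of its exon bases, so some of these reads may belong to that gene.

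**Figure D2:**
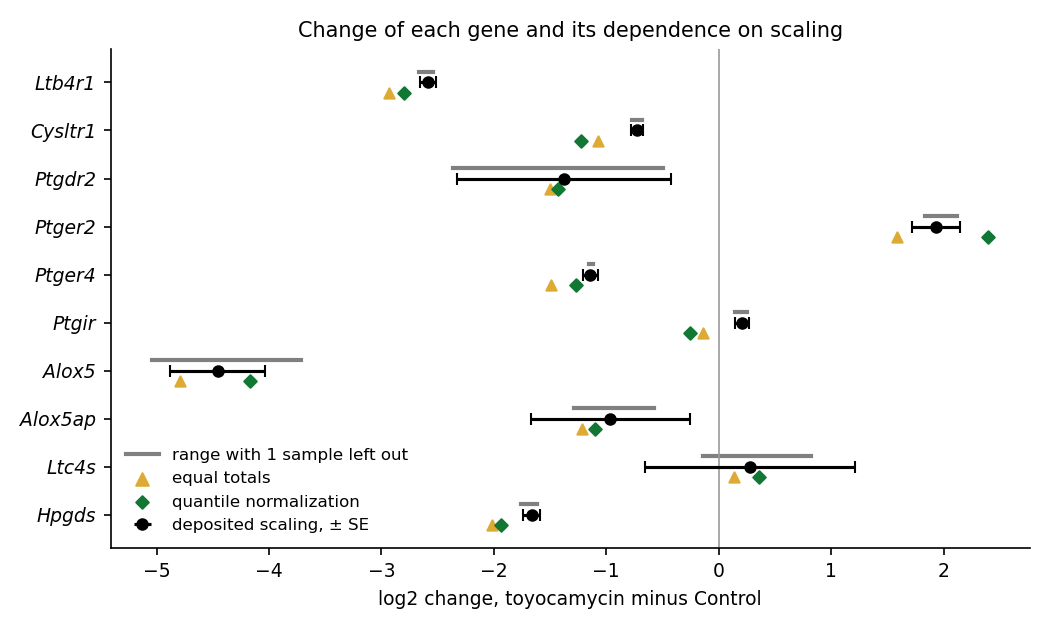
Log2 change (toyocamycin minus Control) of each gene on the x axis, with black points and SE bars for the deposited scaling, triangles for equal totals, diamonds for quantile normalization and grey lines for the range when 1 sample is left out. Only Ptgir changes sign between scalings (0.21, −0.14 and −0.25), and only the line of Ltc4s crosses 0.

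Of the leukotriene synthesis genes, Alox5 was well detected in Control and the others were not. Alox5 encodes 5-lipoxygenase, which makes leukotriene A4 from arachidonic acid (chromosome 6, 116410077 to 116461178, with no overlap of exons). Its normalised read counts were 366, 355 and 355 in Control and 35.7, 19.5 and 4.86 with toyocamycin, the latter from 27, 23 and 4 reads. The Control samples were close together, and the toyocamycin samples were all far lower but spread widely. From a Control mean of 359 ± 6.39 the level fell 17.9-fold (log2 change −4.46, SE 0.42, limma adjusted p = 5.7e-09), a rank of 16 from the most negative log2 change among 16223 genes tested. The log2 change was −3.71 without toyocamycin replicate 3 and −5.04 without toyocamycin replicate 1.

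Alox5ap encodes FLAP, which presents arachidonic acid to 5-lipoxygenase (chromosome 5, 149264767 to 149288153). It had 4, 8 and 6 reads in Control and 3, 1 and 2 with toyocamycin, and antisense Gm19719 covers 13.3% of its exon bases. The ratio of Control to toyocamycin reads was 2.45 (exact 95% interval 0.931 to 7.54), and limma did not call it (log2 change −0.96, SE 0.70, adjusted p = 0.244). Ltc4s, which encodes the synthase of leukotriene C4 (chromosome 11, 50236461 to 50238616), had 5, 0 and 0 reads in Control and 2, 2 and 0 with toyocamycin. Both groups were below the floor, antisense Gm26542 covers 26.4% of its exon bases, no fold is given, and a difference was not detectable at this depth.

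Hpgds encodes the haematopoietic prostaglandin D synthase (chromosome 6, 65117293 to 65144908). Its normalised read counts were 3434, 3763 and 3774 in Control and 1084, 1311 and 1075 with toyocamycin, with no overlap of the groups. The mean fell 3.16-fold, from 3657 ± 193 to 1157 ± 134 (log2 change −1.66, SE 0.07, limma adjusted p = 1.8e-14). Mast cells also express Hpgds, and among mast cell markers Kit rose from 29819 to 44484 (log2 change 0.58). Cpa3 was at 6.80 in Control and 1.45 with toyocamycin, Tpsab1 at 5.93 and 1.45, and Hdc at 42.6 and 21.9. Ms4a2, Mcpt1, Mcpt2, Mcpt4, Cma1 and Tpsb2 were below the floor in both groups. The basophil marker Mcpt8 was at 48.5 in Control and 48.4 with toyocamycin, while Cd200r3 fell from 1199 to 614 and Ccr3 from 76.4 to 24.4. Siglecf, Epx and Prg2 were below the floor in both groups. Their part in the fall of Hpgds was not tested.

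Levels of different genes were compared as normalised reads per kilobase of exon. In Control the order of these levels was Ltb4r1 (3501 ± 137), Cysltr1 (2194 ± 36.3), Ptgir (1015 ± 77.2), Hpgds (569 ± 30.1), Ptger4 (288 ± 8.84), Alox5 (87.4 ± 1.56) and Ptger2 (10.6 ± 2.50), and each of these was apart from the next in all 3 samples. Alox5ap, Ptgdr2 and Ltc4s followed at means of 1.49 to 3.74 and overlapped. With toyocamycin Cysltr1 came first (1328 ± 77.0), followed by Ptgir (1171 ± 55.4) and Ltb4r1 (585 ± 58.1), and Ptger2 (40.6 ± 2.65) stood above Alox5 (4.87 ± 3.75). Alox5 then overlapped Alox5ap. With the length of the longest coding transcript in place of all exons, Hpgds (1052) and Ptgir (1024) changed places in Control and overlapped.

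A single factor per sample, as in the deposited scaling and with equal totals, cancels in the shares of the 6 receptor genes within a sample. Quantile normalization does not cancel, and shares were not computed with it. Ltb4r1 made up 49.9% ± 1.12 of their summed reads per kilobase in Control and 17.9% ± 0.774 with toyocamycin. Cysltr1 went from 31.3% ± 0.682 to 40.8% ± 0.601, and Ptgir from 14.5% ± 0.833 to 36.0% ± 0.359. Ptger4 had shares of 4.11% ± 0.00922 and 4.02% ± 0.248, which overlapped (exact permutation p = 0.6), while Ptger2 went from 0.151% ± 0.0306 to 1.25% ± 0.113. Shares in a sample are parts of a single sum, so they are not separate results, and a fall of the largest raises the others. In level, Cysltr1 itself fell 1.65-fold and Ptger4 2.21-fold, while Ptgir stayed close to its Control level. The level of Ptger4 was 30.7, 22.1 and 30.9 times that of Ptger2 in the Control samples and 3.34, 3.21 and 3.12 times that in the toyocamycin samples. The level of Cysltr1 was 0.627 ± 0.0254 times that of Ltb4r1 in Control and 2.28 ± 0.118 times with toyocamycin. With the longest coding transcript as length, the share of Ptger4 was 7.90% in Control and 7.69% with toyocamycin, and that of Ptger2 0.204% and 1.68%. The mean ratio of Ptger4 to Ptger2 was then 39.7 in Control and 4.59 with toyocamycin, in place of 27.9 and 3.22. These quantities were chosen after the values were seen. For each of them except the shares of Ptger4 and Ptgdr2 the groups did not overlap, and the two-sided exact permutation p was 0.1, the smallest that 3 against 3 samples allow (0.129 adjusted over the 9 shares and ratios computed).

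**Figure D3:**
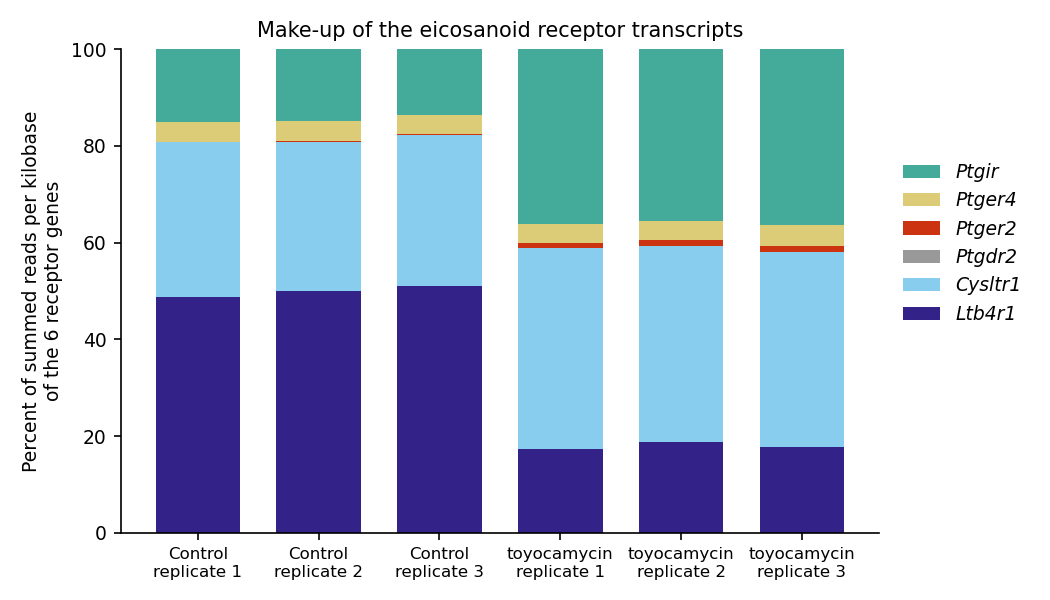
Share (percent) of each of the 6 receptor genes in their summed normalised reads per kilobase of exon, with 1 stacked bar per sample. Ltb4r1 takes 48.8% to 51.0% of each Control bar and 17.3% to 18.8% of each toyocamycin bar, and Ptgir takes at least 35.6% of each toyocamycin bar, more than of any Control bar.

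Other genes of the pathway were taken from 6 lists by role, 76 genes in all, of which 68 passed the filter. Of these, 35 were lower, 12 higher and 21 not called, or 69.1% called, which is near the background of 65.9%. Their median log2 change was −0.58 (−0.03 for all genes tested), and 51.5% were called lower where 33.1% of all genes were. Among the 58 tested genes with under 10% of exon bases or sequence shared with another gene, 30 were lower and 9 higher. For the 6 roles in the order below, 69.2%, 30%, 50%, 50%, 33.3% and 62.5% of tested genes were called lower, against the 33.1% of all genes. Those called higher were 23.1%, 30%, 0%, 0%, 11.1% and 31.25%, where 32.8% of all genes were.

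Among 16 genes for release and re-uptake of arachidonic acid, 9 were lower, 3 higher and 1 not called, and Pla2g5, Pla2g10 and Pla2g2d were too low to test. Pla2g4a, the cytosolic phospholipase that feeds eicosanoid synthesis, fell from 259 ± 16.2 to 93.4 ± 22.3 (log2 change −1.48, SE 0.19, limma adjusted p = 4.06e-07). The phospholipase genes Pla2g6 (log2 change −1.43), Pla2g4b (−1.84) and Pla2g4c (−1.25) fell as well, the last not called without Control replicate 3 (−1.03). Pla2g4b shares 66.5% of its exon bases with Gm28042 on the same strand, so its reads cannot be told apart from that gene's. The desaturase genes of arachidonic acid synthesis fell, Fads2 from 496 ± 49.9 to 39.3 ± 9.05 and Fads1 from 1355 ± 86.4 to 359 ± 34.8, while the elongase gene Elovl5 rose from 7474 ± 195 to 22137 ± 1265. Acsl4, which activates arachidonic acid for storage in membranes, rose (log2 change 1.20), and Lpcat3 (−1.52) and Mboat7 (−1.15), which place it in phospholipids, fell, with 10.2% of the exon bases of Lpcat3 under Emg1 on the opposite strand. The monoacylglycerol lipase gene Mgll fell from 421 ± 26.7 to 76.0 ± 19.6, and Plaa, named for activation of phospholipase A2, rose (log2 change 1.14).

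Of 10 cyclooxygenase and prostanoid synthase genes, 3 were lower, 3 higher and 4 not called, or 4 lower and 2 higher with equal totals. With that scaling 6897 of all 16245 genes tested were lower and 4040 higher. The inducible cyclooxygenase gene Ptgs2 fell from 165 ± 15.6 to 91.9 ± 9.57 (log2 change −0.84, SE 0.19, limma adjusted p = 0.000605), a call that ended with quantile normalization (−0.28). The constitutive gene Ptgs1 was at 9.85 ± 7.95 in Control and 19.4 ± 8.08 with toyocamycin and was not called by limma (adjusted p = 0.107), though it was called higher without Control replicate 1 (log2 change 1.63, adjusted p = 0.0274). The prostaglandin E synthase genes divided. Ptges fell from 993 ± 31.2 to 505 ± 41.4, and Ptges3 rose from 586 ± 12.1 to 995 ± 33.4 (log2 change 0.76). Other genes share 19.6% of the sequence of Ptges3. Ptges2 was at 225 ± 16.4 in Control and 218 ± 18.4 with toyocamycin and was not called. Ptgds, the other prostaglandin D synthase gene, had no read in Control and 2, 3 and 3 reads with toyocamycin, below the floor, and its limma call (adjusted p = 0.0403) ended in 9 of 14 alternatives.

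Of 14 lipoxygenase and leukotriene enzyme genes, 6 were lower and 6 not called, and Alox12b and Aloxe3 were too low to test. Lta4h, which encodes the hydrolase that makes leukotriene B4, fell from 2202 ± 209 to 1437 ± 107 (log2 change −0.61, SE 0.07, limma adjusted p = 2.19e-07). Alox8, a lipoxygenase of mouse that acts at another carbon of arachidonic acid, fell from 1159 ± 86.2 to 199.8 ± 26.6. Mgst2, which can make leukotriene C4, was at 8.60 ± 2.02 in Control and 2.29 ± 2.14 with toyocamycin, and its call ended in 7 of 14 alternatives. Alox15 and Alox12 were below the floor in both groups.

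Of 11 other eicosanoid receptor genes, 4 were lower and 4 not called, or 6 lower with equal totals. Equal totals also raised the count of all genes called lower, from 5374 of 16223 tested to 6897 of 16245. Ptger3, the prostaglandin E2 receptor that lowers cyclic AMP, fell from 101 ± 10.9 to 15.6 ± 9.52 (log2 change −2.77, SE 0.39, limma adjusted p = 1.75e-06). Cysltr2, the other cysteinyl leukotriene receptor gene, fell from 585 ± 48.1 to 301 ± 25.6. Tbxa2r, for thromboxane, fell from 10.1 ± 5.81 to 1.13 ± 1.96 and was not called without Control replicate 1 (−2.24). Ptgdr, the other prostaglandin D2 receptor gene, had no read in any sample, and Gpr17 and Oxgr1 were too low to test.

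Of 9 genes for export, uptake and breakdown, 3 were lower, 1 higher and 5 not called. Abcc1, an exporter of leukotriene C4, rose from 3251 ± 189 to 6737 ± 152, and Abcc4, an exporter of prostaglandins, fell from 1424 ± 65.8 to 615 ± 24.9. Hpgd, which inactivates prostaglandins, fell from 162 ± 37.0 to 81.2 ± 44.7 (log2 change −1.14, SE 0.33, limma adjusted p = 0.0041). That call ended with quantile normalization (−0.58), without the mean-variance trend and without Control replicate 1 (−0.96). Ptgr2, a reductase of prostaglandin metabolites, fell (log2 change −2.26), with 32.0% of its exon bases under a gene on the opposite strand.

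Of 16 genes of receptor coupling and desensitization, 10 were lower, 5 higher and 1 not called. The G protein genes divided. Gna13 rose from 7383 ± 208 to 37815 ± 999 and Gnaq from 2591 ± 16.0 to 11071 ± 598, and Gnai3 had a log2 change of 0.93, while Gnai2, whose product carries the signals of BLT1 and CRTH2, fell from 21362 ± 657 to 11382 ± 286. The adenylyl cyclase genes Adcy7 (from 6598 ± 306 to 2239 ± 100.1) and Adcy3 (log2 change −2.54) fell, the latter with 22.1% of its exon bases under Cenpo on the opposite strand. Rapgef3, a cyclic AMP sensor, fell from 107 ± 30.5 to 31.3 ± 3.90, and the receptor kinase gene Grk6 fell with a log2 change of −1.18. The G protein gene Gnas rose from a mean of 16666 to 29119, with part of its exon bases under Nespas and Gm20721 on the opposite strand. Prkar1a rose from a mean of 14199 to 26125, while Prkaca fell from 1198 to 842.

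**Figure D4:**
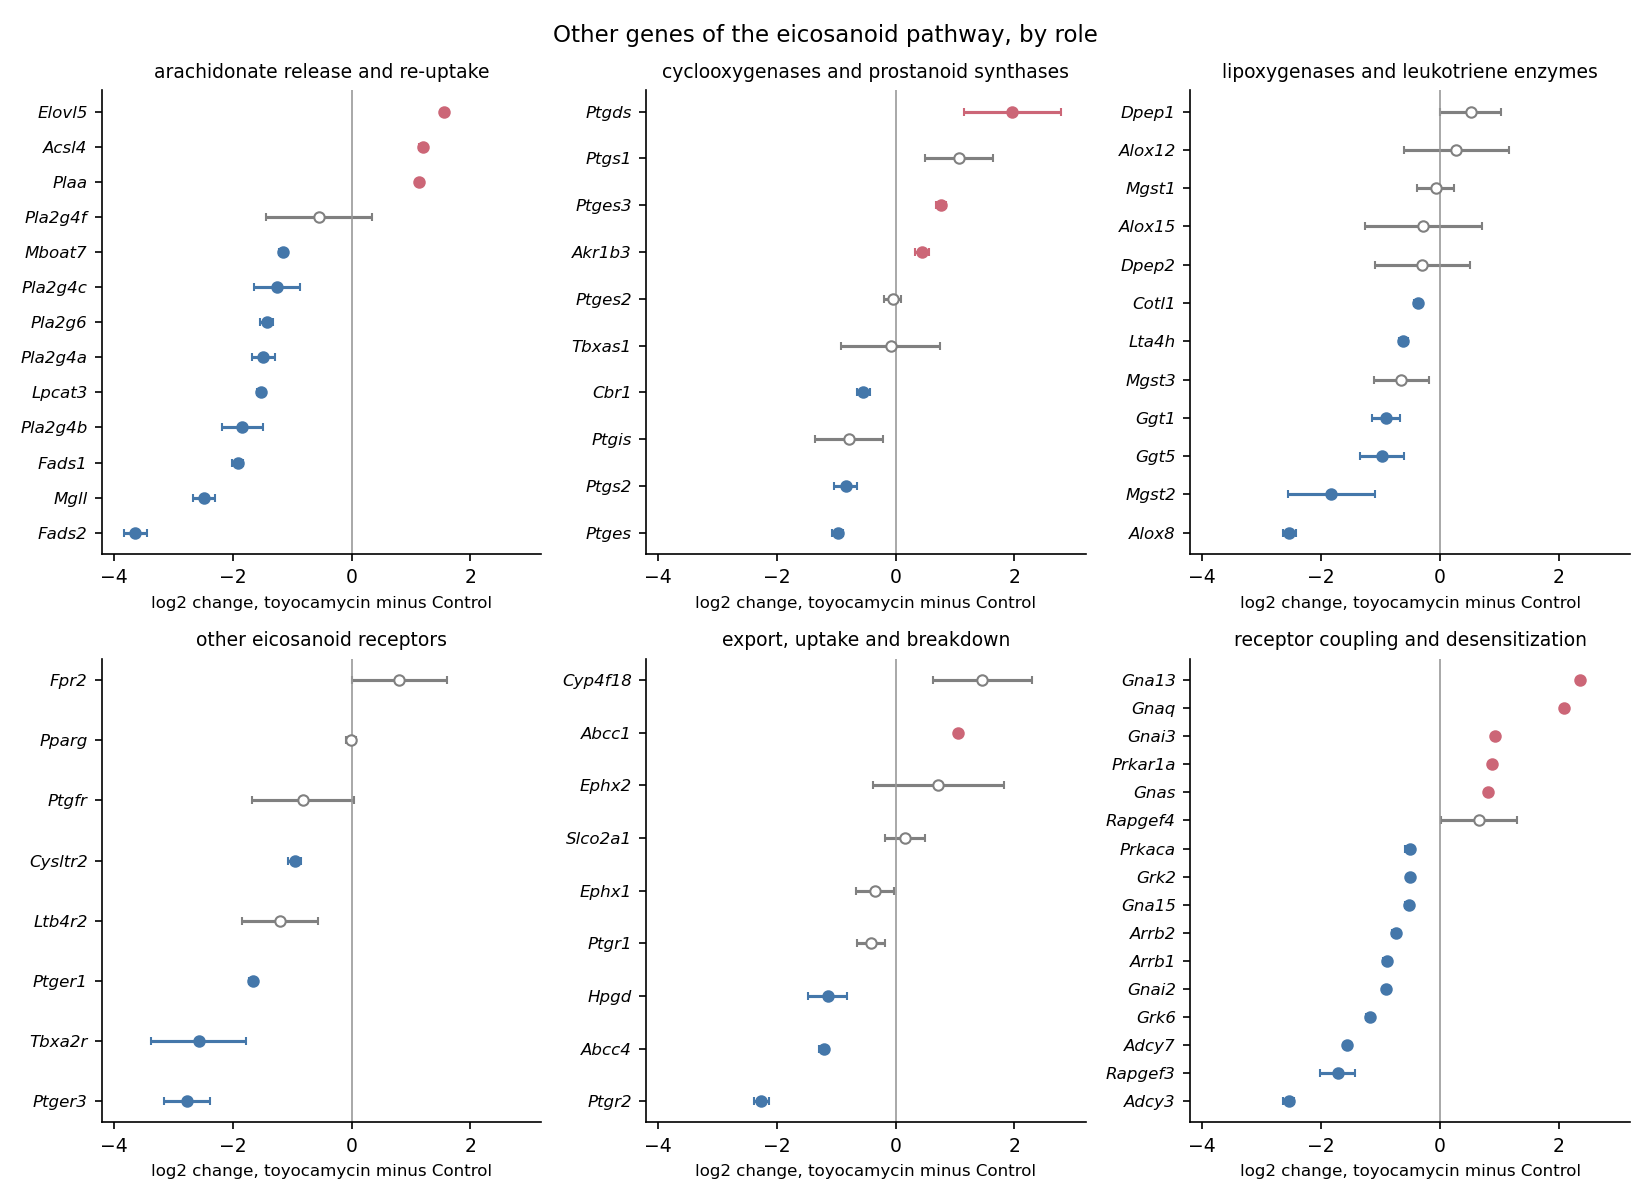
Log2 change (toyocamycin minus Control, ± SE, n = 3 per group) of the 68 tested pathway genes in 6 panels by role, with filled points for genes called lower or higher and open grey points for genes not called. Most filled points in the panels lie left of 0 (35 of 47), with Gna13 (2.36) and Gnaq (2.09) as the largest rises.

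The genes most like the extremes of the list were found by the distance between log2 values of the 6 samples, each centred on its Control mean. Nearest to Ptger2 were Zfat (distance 0.235, log2 change 1.86), Gdap10 (0.25, 1.86) and Gm3414 (0.273, 1.97). Nearest to Alox5 were Rec8 (distance 0.768, log2 change −4.14), Nyap1 (0.809, −4.08) and Gpr179 (0.812, −4.18), each of which fell from a Control mean between 134.5 and 149.3. The distance over 2 groups mainly reflects the size of the change.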

How the data were processed

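The authors trimmed reads with cutadapt 4.7, checked them with FastQC and worked on mm10, as the submitters' processing notes name these; which aligner, counter, strand setting and annotation they used is not given here in any label or file header. Although FPKM is in the name of the deposited table, in each of its 6 columns 100% of the values are whole multiples of the value of 1 read within 0.01 reads, whatever the gene. The deposited values were therefore taken as a normalised signal, reads divided by 1 factor per sample. Values were analysed as log2(value + 1), which understates changes of low genes, for the 16223 genes with a mean of at least 1, with a linear model in limma 3.58.1 (R 4.3.3) with a mean-variance trend, two-sided, Benjamini-Hochberg adjusted over all genes at 0.05. The fit was also run on simulated data in which far fewer genes changed than were called here. That run therefore does not show how the fit performs on these data. Since whole reads were recovered, edgeR 4.0.16 and DESeq2 1.42.0 were run on them as alternatives; edgeR called 10309 of 12949 genes. Folds are ratios of group means. Positions and exon lengths are from GENCODE M21 (GRCm38), and promoters from RefSeq (GRCm38.p6). The text names all 10 genes, every pathway gene called and changed by 1 or more on the log2 scale, 8 fixed pathway genes and the 3 genes nearest to each extreme, except 1 pathway gene that is not reported here. Outside this rule, Ptges, Ptges2, Ptges3, Cysltr2, Gnai2, Gnai3, Gnas, Prkar1a and Prkaca are also named. So are Alox15, Alox12 and the pathway genes too low to test. The other called pathway genes that changed by less than 1 are counted but not named. No replicate pair agreed within sampling noise (chi-square over degrees of freedom, 3.96 to 7.76), so all were kept. The genes and lists were chosen with earlier results of these data known.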

Additional observations from a re-analysis of the deposited data

How the results depend on the processing

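Counts of called genes stayed within 1.5 times of the deposited scaling in all 16 alternatives, for all genes (10073 to 10937), the 10 genes (6 to 8) and the pathway lists (42 to 50). With equal totals the higher share of calls went from 49.7% to 36.9%, with 4040 higher and 6897 lower among all 16245 genes tested. The 10 genes then had 1 higher and 6 lower. Ltb4r1, Cysltr1, Ptger2, Ptger4, Alox5 and Hpgds kept direction and call in all 16. Ptgir reversed with equal totals (−0.14) and quantile normalization (−0.25). Ltc4s, not called, reversed with DESeq2 (−0.054) and ran from −0.14 to 0.82 with 1 sample left out. Alox5 then ran from −5.04 to −3.71 and Ptgdr2 from −2.36 to −0.49. Of 47 called pathway genes, 37 had the same call wherever tested. Deviations from the group means had correlations of −0.04 to 0.02 between same-numbered samples and −0.09 to 0.08 between differently numbered ones. With group means of 3 samples, such correlations cannot decide whether the numbers pair samples. With the replicate block 10570 genes, 7 of the 10 and 46 pathway genes were called. Ptgdr2, Alox5ap and Ltc4s were not tested in edgeR or with a filter at a mean of 10, and Ltc4s not without Control replicate 1. With the longest transcript as length, 6 of 10 genes in Control and 8 with toyocamycin kept their place in the order of levels. Depth limits Ptgdr2, Alox5ap and Ltc4s, which had 2 to 18 reads per group.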
